A study of Homo sapiens with 4 samples.

Results

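The enzymes that modify drugs, steroids and reactive by-products were followed in HK-2 cells, an established line of human kidney proximal tubule epithelium, left untreated or given transforming growth factor β1 (TGF-β1). The genes were chosen by symbol from the protein-coding genes: UDP-glucuronosyltransferases (UGT1A, UGT2A, UGT2B), cytochromes P450 of families CYP1 to CYP4, glutathione S-transferases (GST), aldo-keto reductases of family AKR1, cytosolic sulfotransferases (SULT), carbonyl reductases (CBR) and epoxide hydrolases (EPHX). GENCODE release 29 holds 102 such genes. Of these, 65 were among the 25609 genes of the deposited table, and the other 37 were not analysed here. Only 25 of the 65 had a mean of at least 0.5 RPKM (read count divided by exon length in kilobases and scaled by library size) over the libraries and were tested, as were 16590 genes in all. Total RNA was sequenced from 2 control and 2 TGF-β1 samples, all labelled wild type. Per the labels, serum was withdrawn for 24 h, exposure to TGF-β1 followed for 24 h at 20 ng/mL, and 4-thiouridine, a label of new RNA, was present at 100 μM over the final 20 h. The same protocol text stands on every sample, so controls are known only by title and treatment label. No separate cultures are named, so the p-values reflect no more than the spread among these libraries, which may be technical.

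Drug metabolism runs in stages. In phase I, cytochromes P450 insert oxygen, epoxide hydrolases open epoxides with water, and AKR1 and CBR enzymes reduce carbonyl groups. In phase II, UGT, GST and SULT enzymes attach glucuronic acid, glutathione or sulfate, and efflux pumps then export the conjugates. The proximal tubule is a main site of these reactions in the kidney, and cultured tubule lines are known to keep only part of its enzyme set.

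The label of the cells was checked against tubule markers. The lineage factor PAX8 fell from 43.5 ± 1.8 RPKM in controls to 15.1 ± 0.62 RPKM under TGF-β1 (adjusted p = 0.00198, limma). DPP4 also fell, while GGT1 was measured and did not pass the test. Of the 11 proximal tubule markers in the table, 7 were below the filter, among them CUBN, SLC34A1 and AQP1. Summed over the 11, the level was 86.7 and 88.9 RPKM in controls and 47.2 and 44.8 RPKM with TGF-β1. Most of that difference was PAX8, and GGT1 went from 20.0 ± 0.59 to 17.9 ± 1.5 RPKM. COL1A2, VWF, CDH5 and SLC12A3, which mark fibroblasts, endothelium and distal tubule, had 0 reads in all 4 libraries, and ALB, of hepatocytes, had 1 or 2. The fibroblast gene LUM measured 12.1 and 12.9 RPKM in the controls against 8.76 and 6.74 RPKM (adjusted p = 0.0567, limma). The water channel AQP3, of the loop, distal tubule and collecting duct list like SLC12A3, reached the filter only through the TGF-β1 group. It rose from 3 and 5 reads to 36 and 24 (adjusted p = 0.0329, limma). That list summed to 0.439 and 0.492 RPKM in controls and 3.07 and 1.84 RPKM with TGF-β1, most of it AQP3. Summed levels ran from 12.3 to 13.0 RPKM in controls and 7.02 to 8.97 RPKM under TGF-β1 for the fibroblast list, and from 32.6 to 36.1 and 35.8 to 37.3 RPKM for the hepatocyte list, nearly all of it SERPINA1. The endothelial list had a sum of 0.028 to 0.0389 RPKM in the 4 libraries and the leukocyte list one of 0.555 and 0.618 RPKM in controls against 0.233 and 0.303 RPKM. Of the leukocyte genes LYZ had at most 1 read and CD68 had 3 and 4 reads against 1 and 2. The part of these markers in the results that follow was not tested, and in bulk RNA fewer cells of a kind and less RNA per cell cannot be told apart. As a check of the treatment label, the TGF-β response gene SMAD7 rose from 8.65 ± 0.43 to 37.6 ± 3.4 RPKM and PMEPA1 from 35.6 ± 1.5 to 329 ± 1.0 RPKM (SD, n = 2 per group).

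Among the 25 tested genes, UGT2B4, GSTP1 and GSTO1 rose and AKR1B1 fell with TGF-β1. The call used limma on log2(RPKM + 0.5) with Benjamini-Hochberg adjustment over all 16590 genes and a threshold of 0.05. The 3 that rose, all of phase II, were 12% of the tested genes, beside 6.12% of all genes, and the 1 that fell, of phase I, was 4%, beside 3.0%. Together they were 16%, beside 9.12% of all genes. At the background share 2.28 calls would be found among 25 genes, against the 4 found. The median log2 fold change of the 25 was 0.01, against 0.03 over all genes tested. Both TGF-β1 libraries lay above both controls in 9 genes, or 36% (29.5% of all genes), and below them in 8, or 32% (24.6% of all genes). The groups were thus apart in 68%, beside 54.1% of all genes, and overlapped in the other 8. UGT2B4, SULT1C2 and SULT1A2 reached the filter through 1 group only, so the tested genes are not a neutral sample of the families.

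**Figure D1:**
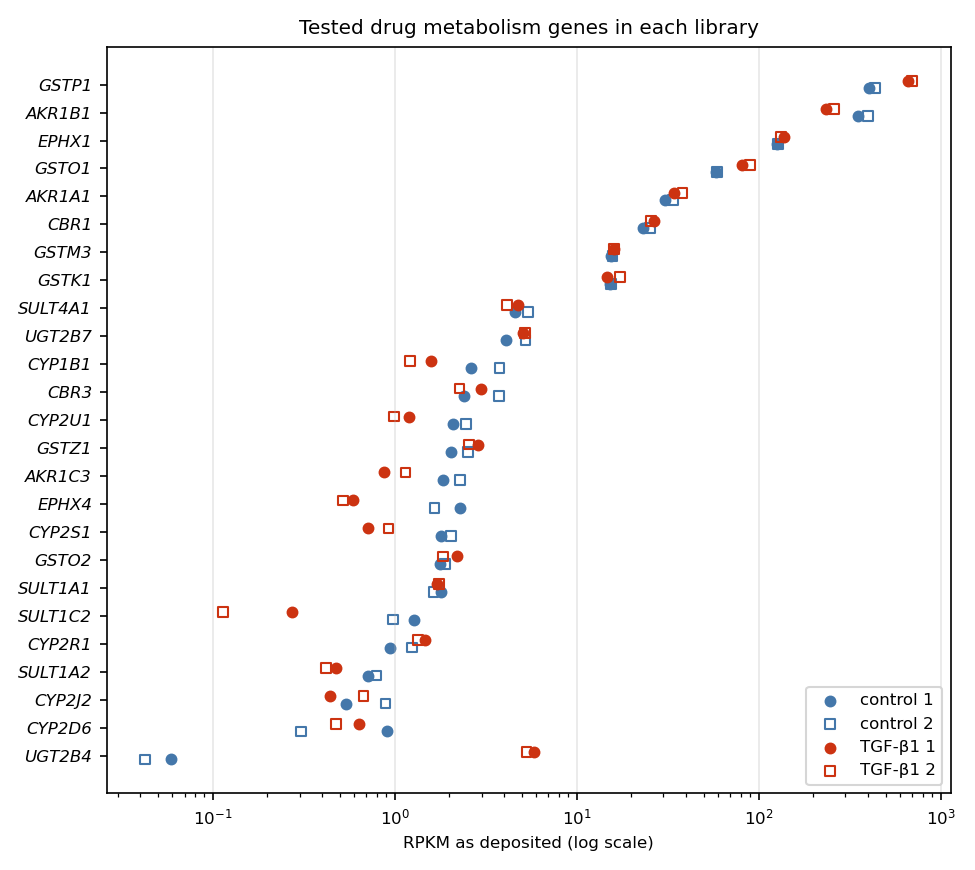
RPKM as deposited (log scale) of the 25 tested genes in the 2 control and 2 TGF-β1 libraries, ordered by the control mean. GSTP1 and AKR1B1 stand first in both groups, and UGT2B4 moves from last place to ninth.

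The levels covered a wide range. GSTP1 led in both groups, followed by AKR1B1, EPHX1, GSTO1, AKR1A1, CBR1, GSTM3 and GSTK1, and this order of the first 8 was the same with and without TGF-β1. Within it, GSTM3 and GSTK1 did not differ beyond the spread between libraries. All other members were under 6 RPKM in every library. Expression was therefore concentrated: GSTP1 supplied 81.1% and 81.9% of the summed RPKM of the GST genes in controls and 84.8% and 84.4% with TGF-β1. AKR1B1 supplied 91.4% and 91.6% of that of the AKR1 genes in controls and 86.9% and 86.8% with TGF-β1. EPHX1 supplied at least 98.0% of that of the EPHX genes in each library. Summed over all phase II members, the level was 511 and 545 RPKM in controls and 800 and 845 RPKM with TGF-β1, and most of it was GSTP1. Over all phase I members it was 549 and 606 RPKM in controls and 447 and 468 RPKM with TGF-β1, and most of it was AKR1B1.

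Of the 19 cytochromes P450 in the table, 6 were tested and none passed in either direction by limma. Without adjustment 3 had p under 0.05 (CYP1B1, CYP2S1 and CYP2U1), as had 25% of all genes, and limma's voom on recovered reads, a second fit, called these 3 lower, beside 8.20% of all genes. CYP1B1, which oxidises oestrogens and polycyclic hydrocarbons, measured 2.62 and 3.77 RPKM in controls and 1.58 and 1.22 RPKM with TGF-β1. Both TGF-β1 libraries were below both controls, with a log2 fold change of -0.95 and a standard error of 0.24 (adjusted p = 0.0822, limma). CYP2S1 was likewise lower in both libraries, at 1.80 and 2.04 RPKM in controls and 0.712 and 0.924 RPKM with TGF-β1 (-0.88, adjusted p = 0.0870, limma). CYP2U1, a fatty acid hydroxylase, measured 2.10 and 2.46 RPKM against 1.20 and 0.993 RPKM (-0.80, adjusted p = 0.0920, limma). CYP2R1, a vitamin D 25-hydroxylase, had both TGF-β1 libraries above both controls, at 0.947 and 1.25 RPKM against 1.47 and 1.34 RPKM, with an interval of -0.34 to 0.86 on the log2 scale. The groups overlapped for CYP2J2, an arachidonic acid epoxygenase, and for CYP2D6, a hepatic drug oxidase with 3 to 7 reads per library. CYP2D6 shares 34.4% of its 50-base words with other genes, mostly the pseudogene CYP2D7, so its reads are uncertain.

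The P450s best known from liver and from dioxin responses were barely detected. CYP1A1, CYP1A2, CYP3A4 and CYP3A5 had 2 reads or fewer in every library. CYP4V2, an ω-hydroxylase of fatty acids, was the member outside the filter with most reads, 5 and 18 against 9 and 10. The 5 CYP4F genes had at most 1 read in any library.

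Epoxide hydrolase 1 (EPHX1), the microsomal enzyme, was the third most abundant member at 127 and 127 RPKM in the controls and 138 and 133 RPKM under TGF-β1. The log2 difference was 0.09 with an interval of -0.05 to 0.24 (adjusted p = 0.384, limma), and the sign turned after quantile normalisation (-0.15) and when scaled by total recovered reads (-0.09). EPHX4, a relative whose substrates are little known, measured 2.29 and 1.65 RPKM in controls and 0.588 and 0.519 RPKM with TGF-β1. The groups did not overlap. The reads behind it were 17 and 17 against 5 and 5, a ratio of 3.73 of control over TGF-β1 with a 95% counting interval of 1.80 to 8.45. Counting intervals here are exact binomial ones and cover counting error only. With an adjusted p of 0.0500014 (limma) it missed the threshold, and it passed when scaled by total recovered reads (adjusted p = 0.0421, limma). EPHX2, the soluble enzyme, had 2 and 3 reads against 5 and 5 and was not tested.

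AKR1B1 (ENSG00000085662.13, hg38 chromosome 7, 134442350 to 134459284, minus strand) encodes aldose reductase, which turns glucose into sorbitol and reduces lipid aldehydes. It measured 351 and 399 RPKM in controls and 235 and 259 RPKM with TGF-β1. Both TGF-β1 libraries were below both controls, on 4350, 6856, 3570 and 4464 reads in the order control 1, control 2, TGF-β1 1 and TGF-β1 2. The mean fell from 375 ± 34 to 247 ± 17 RPKM (SD, n = 2 per group), a log2 difference of -0.60 with a standard error of 0.09 (adjusted p = 0.0227, limma). The direction held under all 15 alternative settings. Leaving out control replicate 2 ended the call (adjusted p = 0.0517, limma), as did leaving out TGF-β1 replicate 1 (adjusted p = 0.0536, limma). It was also lost without the variance trend (adjusted p = 0.117, limma) and without the filter (adjusted p = 0.0523, limma).

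AKR1A1, aldehyde reductase, measured 30.7 and 33.8 RPKM in the controls and 34.3 and 38.1 RPKM under TGF-β1. It did not pass, with a log2 fold change of 0.17 and an interval of -0.06 to 0.40. AKR1C3, which reduces prostaglandin D and androgen precursors, measured 1.85 and 2.28 RPKM in controls and 0.876 and 1.15 RPKM with TGF-β1. Its groups did not overlap, and it did not pass (-0.76, adjusted p = 0.120, limma). AKR1C1 and AKR1C2 had 0 reads in every library. These 3 genes lie close together on chromosome 10 and are close copies, and their first 60 coding bases, from GENCODE release 29, are shown because they bear on how reads can be assigned. Capitals mark the 8 positions at which the 3 differ.
AKR1C1: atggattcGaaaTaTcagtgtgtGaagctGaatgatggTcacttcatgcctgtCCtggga
AKR1C2: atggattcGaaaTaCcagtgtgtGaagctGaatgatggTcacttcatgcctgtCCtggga
AKR1C3: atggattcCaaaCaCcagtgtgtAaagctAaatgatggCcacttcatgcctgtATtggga
Over their 972 coding bases AKR1C1 and AKR1C2 are 98.0% identical, with an unbroken run of 189 shared bases, and AKR1C3 is 91.5% identical to AKR1C1 and 91.0% to AKR1C2. Of the 50-base words of AKR1C2, 38.9% also occur in another gene, against 4.53% for AKR1C3. The handling of reads that map to several genes was not given in the sources used here. Most words of AKR1C1 and AKR1C2 occur in no other gene (28.6% and 38.9% are shared), and no read was counted for these either. The entries of 0 reads are bounded by depth and do not show that the transcripts were absent.

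Neither tested carbonyl reductase passed, also without adjustment of p or with voom. CBR1, which reduces quinones and prostaglandins, measured 23.3 and 25.3 RPKM in controls and 26.7 and 25.6 RPKM with TGF-β1 (adjusted p = 0.491, limma). Its antisense gene CBR1-AS1, opposite 18.9% of its exon length, had 0 to 2 reads per library. CBR3 had 9 and 20 reads against 14 and 12, and 42.2% of its exon length lies opposite exons of CBR3-AS1. CBR3-AS1 itself had 14 and 23 reads against 12 and 19. The strand setting of the counting was not given in the sources used here. Reads from the overlapping stretch of that pair are therefore uncertain, as are those of the 12.9% of CYP1B1 exon length opposite CYP1B1-AS1 (3 to 6 reads per library) and RMDN2. CBR4, of mitochondria, had 1 and 11 reads against 7 and 12 and was below the filter.

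**Figure D2:**
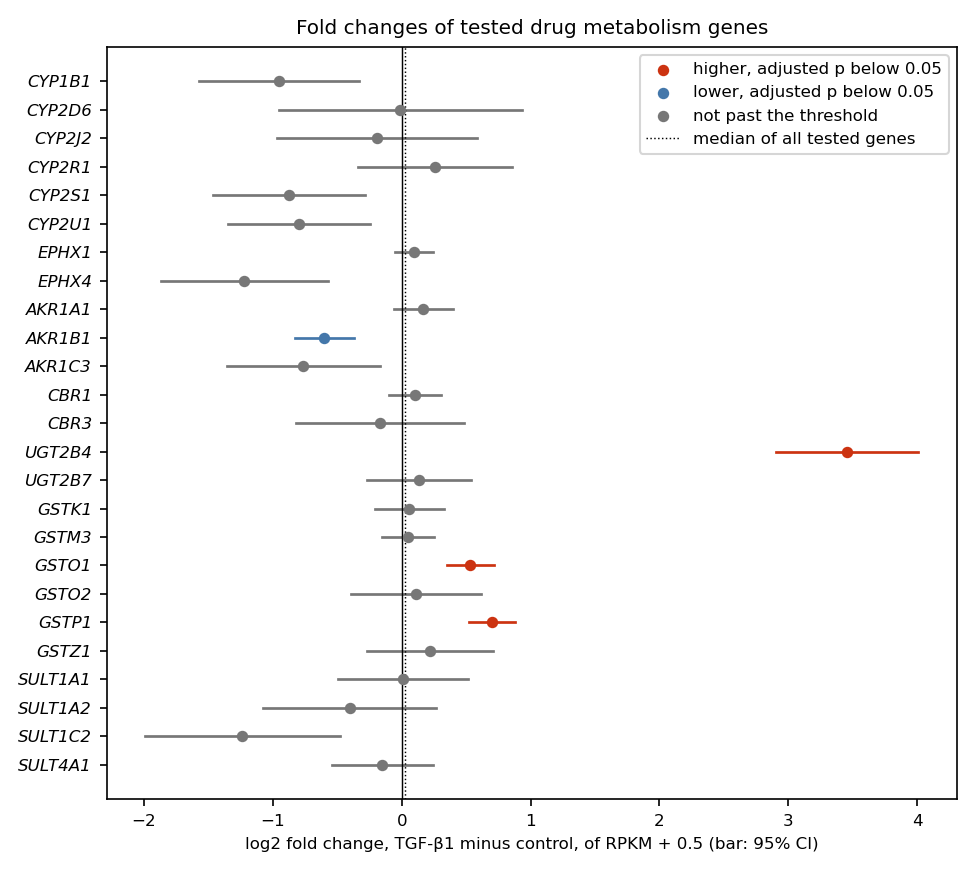
Log2 fold change of RPKM + 0.5, TGF-β1 minus control, for the 25 tested genes in the order of the families, with 95% confidence intervals from limma. UGT2B4, GSTO1 and GSTP1 rose and AKR1B1 fell, and the dotted line at 0.03 is the median of all tested genes.

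UGT2B4 (ENSG00000156096.13, hg38 chromosome 4, 69480165 to 69526014, minus strand) is a microsomal glucuronosyltransferase of bile acids and phenols, known mainly from liver. It had 0 reads in both controls and 60 and 62 with TGF-β1, or 5.81 and 5.30 RPKM. With the controls together set at a floor of 3 reads it was at least 37.1-fold higher (log2 fold change on the RPKM + 0.5 scale 3.46, standard error 0.22, adjusted p = 0.00282, limma). UGT2B4 reached the filter only through the TGF-β1 group, where it was high. It stayed past the threshold under each alternative setting that kept all 4 libraries, with adjusted p values up to 0.0313 (limma). With 1 library left out its log2 fold change was 3.40 to 3.52. These settings refit the same reads and are no added support. UGT2B7, the main UGT2B enzyme of kidney and the one that conjugates morphine, lies on the same chromosome (69051363 to 69112987, plus strand). It measured 4.11 and 5.23 RPKM in controls and 5.06 and 5.22 RPKM with TGF-β1. Its groups overlapped, and the interval of its log2 fold change was -0.27 to 0.54 (adjusted p = 0.663, limma). UGT2B7 thus made up 92.4% and 93.9% of the summed RPKM of the UGT genes in controls. With TGF-β1, UGT2B4 made up 51.4% and 49.0% and UGT2B7 44.8% and 48.2%. The RPKM values include 0.5 read for each gene, also at 0 reads. In reads, UGT2B7 had 31 of 31 and 55 of 57 counted for the UGT genes in controls. UGT2B17, a sex steroid conjugating enzyme, had 0 reads in every library and shares 27.5% of its words with UGT2B15.

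The first 60 coding bases of these 3 genes, from GENCODE release 29, are shown because the rise of UGT2B4 depends on telling it from its relatives. Capitals mark the 14 positions at which the 3 differ.
UGT2B4: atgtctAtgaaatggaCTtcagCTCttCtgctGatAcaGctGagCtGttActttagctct
UGT2B7: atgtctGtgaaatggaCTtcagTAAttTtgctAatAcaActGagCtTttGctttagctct
UGT2B17: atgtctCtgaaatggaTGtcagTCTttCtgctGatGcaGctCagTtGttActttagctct
Of the 50-base words of UGT2B4, 3.56% also occur in another gene, most often UGT2B28 with 0.983%, and 0.340% occur in UGT2B7. UGT2B28, UGT2B10, UGT2B11 and UGT2B15 are not in the deposited table, so their reads could not be compared. No exon of UGT2B4 overlaps an exon of another gene in GENCODE release 29.

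The UGT1A genes cannot be read in this way. UGT1A6, UGT1A7 and UGT1A9 use the same last exons at 1 locus on chromosome 2, and 44.0%, 40.6% and 61.2% of their exon length lies in exons of other UGT1A genes. They had 2 reads or fewer in every library. UGT2A1 and UGT2A3 had 1 read or none in every library.

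GSTP1 (ENSG00000084207.15, hg38 chromosome 11, 67583595 to 67586656, plus strand), the pi class transferase that is abundant in epithelial lines, measured 403 and 434 RPKM in controls and 662 and 698 RPKM with TGF-β1. The lower TGF-β1 library was well above the higher control. The mean rose 1.63-fold from 419 ± 22 to 680 ± 25 RPKM (SD, n = 2 per group), with a log2 fold change of 0.70 and a standard error of 0.07 (adjusted p = 0.00821, limma). The log2 value was 0.40 after quantile normalisation and 0.52 when scaled by total recovered reads. Among the 15 alternative settings the call was lost only without the variance trend (adjusted p = 0.0762, limma). GSTP1 shares no 50-base word with another gene.

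GSTO1 (ENSG00000148834.12, chromosome 10, 104235356 to 104267459, plus strand), an omega class enzyme that acts as a thiol transferase and reduces arsenic compounds, measured 58.5 and 59.1 RPKM in controls and 81.3 and 89.5 RPKM with TGF-β1. The 2 controls were nearly equal and both TGF-β1 libraries were above them. It rose 1.45-fold (log2 0.53, standard error 0.07, adjusted p = 0.0166, limma), by 0.30 after quantile normalisation, and it missed the threshold when TGF-β1 replicate 2 was left out (adjusted p = 0.0635, limma) or without the variance trend (adjusted p = 0.112, limma). Its neighbour GSTO2 measured 1.77 and 1.90 RPKM against 2.19 and 1.85 RPKM, with overlapping groups (adjusted p = 0.791, limma).

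The other GST genes gave no call. GSTK1, of mitochondria and peroxisomes, measured 15.2 and 15.5 RPKM in controls and 14.8 and 17.3 RPKM with TGF-β1. GSTM3, a mu class enzyme, measured 15.4 and 15.7 RPKM against 16.1 and 16.1 RPKM, and its log2 interval of -0.15 to 0.25 is among the narrower ones. GSTZ1, maleylacetoacetate isomerase of tyrosine breakdown, measured 2.04 and 2.52 RPKM against 2.88 and 2.57 RPKM (adjusted p = 0.543, limma). All 6 tested GST genes had a log2 fold change above 0, and those of GSTK1, GSTM3 and GSTO2 turned below 0 when scaled by total recovered reads (-0.12, -0.12 and -0.03). In the alpha class GSTA4 had 1 to 7 reads per library. GSTA1 and GSTA2 were listed at 0 reads, and 21.7% and 18.4% of their words occur in each other. Most of their words occur in no other gene (26.2% and 18.4% are shared), and no read was counted for these either. The zeros are bounded by depth and do not show absence. GSTM1 had 1 and 1 reads against 5 and 5, but 51.5% of its words occur in another gene, most often GSTM2, which had 0 reads. GSTT2B had 0 to 2 reads and shares 90.9% of its words, all of them with GSTT2.

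The 250 bases before the RefSeq start (GRCh38.p14, gene strand) are printed for the called genes that the promoter table holds, because GSTs and reductases are textbook targets of the antioxidant response element, the site of NRF2 with small MAF proteins. Capitals mark matches, on either strand, to TGACNNNGC (that element), TGANTCA (AP-1), GCGTG (core of the xenobiotic response element of the aryl hydrocarbon receptor), GTCTAGAC (the palindrome of SMAD proteins) or AGCCAGACA (the CAGA box of SMAD proteins).
GSTP1, chr11:67583562-67583811, plus strand: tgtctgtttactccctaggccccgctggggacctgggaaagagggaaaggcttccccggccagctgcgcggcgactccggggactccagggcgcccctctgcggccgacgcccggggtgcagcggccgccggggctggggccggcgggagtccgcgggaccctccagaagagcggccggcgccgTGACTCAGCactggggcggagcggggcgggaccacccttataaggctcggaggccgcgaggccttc
GSTO1, chr10:104254642-104254891, plus strand: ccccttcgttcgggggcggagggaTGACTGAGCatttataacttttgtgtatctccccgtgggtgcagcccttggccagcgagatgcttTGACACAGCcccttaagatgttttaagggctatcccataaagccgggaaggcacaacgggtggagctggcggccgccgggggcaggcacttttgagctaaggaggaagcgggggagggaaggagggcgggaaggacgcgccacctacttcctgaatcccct
AKR1B1, chr7:134459101-134459350, minus strand, the more downstream of its RefSeq starts: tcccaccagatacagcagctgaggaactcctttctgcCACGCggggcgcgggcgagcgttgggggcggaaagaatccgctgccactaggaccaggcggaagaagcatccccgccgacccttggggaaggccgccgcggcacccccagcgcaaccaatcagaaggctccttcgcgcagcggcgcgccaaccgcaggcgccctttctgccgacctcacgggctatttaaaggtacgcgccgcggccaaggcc
In GSTP1 the run TGACTCAGC, from base -66 to -58 before the start, matches both the antioxidant and the AP-1 word, which overlap there. GSTO1 holds the antioxidant word at -226 to -218 and at -161 to -153. AKR1B1 holds only the GCGTG core, read on the other strand at -213 to -209. Promoters were found for 18 of the 25 tested genes. The antioxidant word occurred in 5 of them (GSTP1, GSTO1, CBR1, EPHX1 and SULT1C2), beside 10.9% of all 35116 promoters, and the AP-1 word in GSTP1 alone, beside 6.57%. The GCGTG core occurred in 8, beside 32.2%. A gene was counted if any of its listed starts had the word, whereas the shares are of single promoters. The counts and the shares are therefore in unlike units and do not compare directly. Neither SMAD word occurred in the 18, and they occur in 0.182% and 0.231% of all promoters. A match is a run of letters and not evidence of binding.

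Of 9 sulfotransferases in the table, 4 were tested and none passed by limma. SULT1C2, which reached the filter only through the controls, alone had an unadjusted p under 0.05, as had 25% of all genes. Voom called it lower, beside 8.20% of all genes. SULT1C2, a renal and gastric sulfotransferase of small phenols, had 36 and 38 reads in the controls against 9 and 4. In RPKM this was 1.28 and 0.975 against 0.272 and 0.114, with no overlap. Control over TGF-β1 was 6.24 in reads, with a 95% counting interval of 3.43 to 12.3. The log2 fold change of -1.24 on the RPKM + 0.5 scale missed the threshold (adjusted p = 0.0699, limma). SULT1A1, a phenol sulfotransferase, measured 1.80 and 1.64 RPKM against 1.71 and 1.75 RPKM, and its sign turned under 5 alternative settings. SULT1A2 had 5 and 8 reads against 4 and 4, and 19.0% of its words occur in SULT1A1. SULT1A3, a catecholamine sulfotransferase, had at most 2 reads and shares 75.5% of its words with its duplicate SULT1A4. SULT4A1, a brain form, measured 4.61 and 5.41 RPKM against 4.77 and 4.14 RPKM (adjusted p = 0.601, limma).

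**Figure D3:**
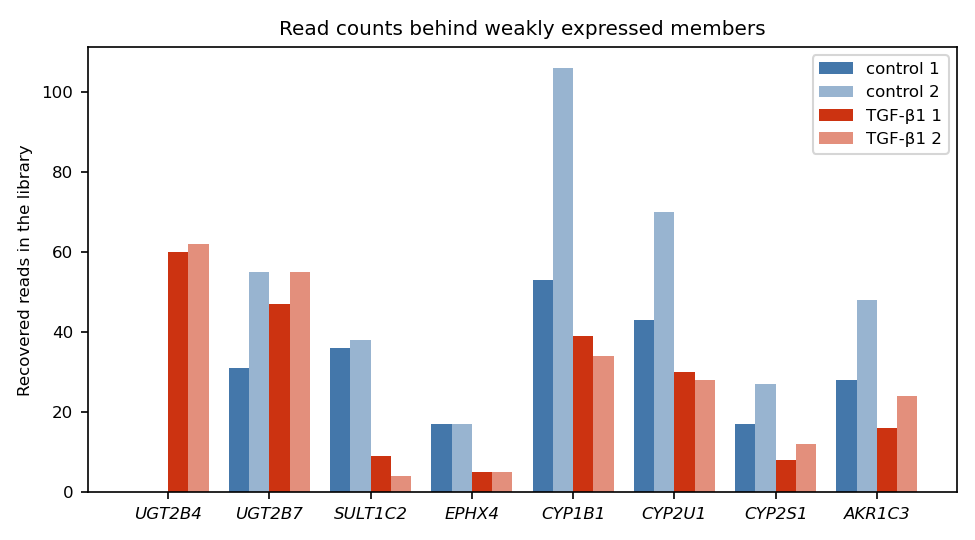
Recovered reads in each library for 8 weakly expressed genes, as bars from 0, not scaled for depth. UGT2B4 has 0 reads in both controls, UGT2B7 overlaps between the groups, and the other 6 have lower bars with TGF-β1 although those libraries have larger totals than control 1.

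With limma's voom, fitted to the recovered reads, the 3 genes higher with TGF-β1 were again UGT2B4, GSTP1 and GSTO1, or 12% of the 25 beside 12.2% of all genes. It called 7 genes lower, or 28% beside 8.20% of all genes, where 2.05 would be found at the background share. They were AKR1B1, SULT1C2 (adjusted p = 3.55e-05), CYP1B1 (0.000188), CYP2U1 (0.00177), EPHX4 (0.00977), AKR1C3 (0.0123) and CYP2S1 (0.0251). In each of the 7 both TGF-β1 libraries were below both controls in RPKM, as in 24.6% of all genes. That separation and the counting intervals that follow come from the same reads as the call and are no added support. CYP1B1 had 53 and 106 reads against 39 and 34, and its counting interval for control over TGF-β1 was 1.80 to 3.19. For CYP2U1 that interval was 1.54 to 2.98, for CYP2S1 1.39 to 4.32 and for AKR1C3 1.40 to 3.13. The test on RPKM did not call the 6 other than AKR1B1.

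Reads were then set beside the sequence each gene shares with others. Of the 65 genes, 14 shared at least 25% of their 50-base words with another gene, and 2 of these (CBR3 and CYP2D6) were tested. Of the 51 that shared less, 23 were tested. None of the 14 had more than 55 reads over the 4 libraries together. Among the 4 called genes AKR1B1 shared most, at 6.98%. Of the 40 genes below the filter, 15 had 0 reads in all 4 libraries, 20 had 1 to 10 reads in sum and 5 had more than 10. A count of 0 allows up to 3 reads in a library, so weak expression of these genes was not detectable at this depth.

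**Figure D4:**
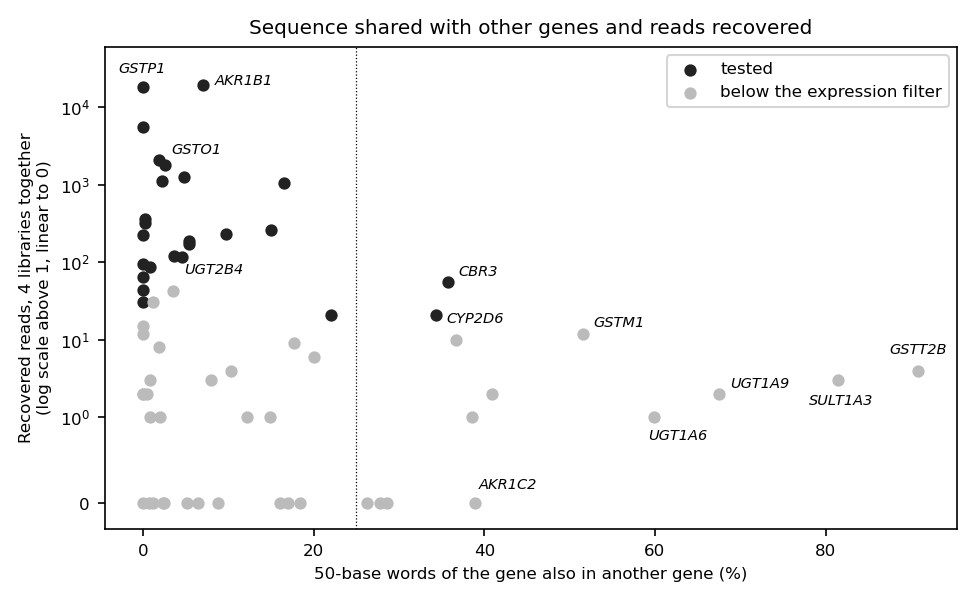
Share of each gene's 50-base words that also occur in another gene against its recovered reads summed over 4 libraries, for all 65 genes. The dotted line is at 25%, and right of it no gene exceeds 55 reads.

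The genes around these families were taken from lists of sensors, cosubstrate supply, other enzymes and efflux pumps. Of 17 tested xenobiotic sensors and tubular regulators, 2 rose and 0 fell (6.12% and 3.0% of all genes did), with a median log2 fold change of -0.09. CEBPB, a transcription factor of the acute phase and liver, rose 1.90-fold from 48.8 ± 0.82 to 92.6 ± 2.1 RPKM (adjusted p = 0.00305, limma), and the fatty acid receptor PPARD rose from 11.8 ± 0.73 to 18.0 ± 0.63 RPKM (adjusted p = 0.0235, limma). PPARD was no longer called when control replicate 2 (adjusted p = 0.0533), TGF-β1 replicate 1 (0.0804) or TGF-β1 replicate 2 (0.116) was left out. NFE2L2, which encodes NRF2, did not pass (-0.31, adjusted p = 0.0754, limma), nor did AHR, the aryl hydrocarbon receptor (-0.48, adjusted p = 0.250, limma), and the xenobiotic receptor NR1I2 had 0 reads in every library.

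Of 17 genes for electron donors and cosubstrates, 0 rose and 1 fell (median -0.10), where 6.12% and 3.0% of all genes did. It was CYB5A, cytochrome b5, an electron donor to P450s, which went from 4.62 ± 0.11 to 2.17 ± 0.13 RPKM (adjusted p = 0.0277, limma). That call was lost without any single library, with adjusted p values of 0.0811 to 0.109. POR, the P450 reductase, and UGDH, which makes UDP-glucuronic acid, did not pass (adjusted p = 0.532 and 0.869, limma). Of 13 other phase I enzymes, 0 rose and 1 fell (median -0.10), the aldehyde dehydrogenase ALDH3B1, from 8.43 ± 0.050 to 4.00 ± 0.016 RPKM (adjusted p = 0.0111, limma, and 0.0508 without TGF-β1 replicate 2). Of 11 other phase II enzymes none passed by limma on RPKM, 6 had an unadjusted p under 0.05 (25% of all genes did), and voom called 2 higher and 3 lower (12.2% and 8.20% of all genes). The smallest p belonged to NNMT, nicotinamide N-methyltransferase, at 15.5 and 21.6 RPKM in controls and 31.4 and 30.3 RPKM with TGF-β1 (log2 0.74, adjusted p = 0.0567, limma).

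Of 8 tested P450s of other families, 2 rose and 0 fell (median 0.41), where 6.12% and 3.0% of all genes did. CYP27C1, a retinoid desaturase that reached the filter only through the TGF-β1 group, had 0 reads in both controls and 19 and 23 with TGF-β1, at least 12.8-fold higher with the controls together set at 3 reads (adjusted p = 0.0329, limma). TBXAS1, thromboxane synthase, rose from 1.41 ± 0.35 to 3.42 ± 0.085 RPKM (adjusted p = 0.0472, limma). Of 8 tested efflux pumps, 0 rose and 2 fell (median -0.08), beside the same shares of all genes. They were ABCB1, P-glycoprotein, with 34 and 76 reads in the controls and 14 and 11 under TGF-β1 (log2 -1.44, adjusted p = 0.0470, limma), and ABCC4, a pump of conjugates and organic anions, with 53 and 81 reads against 20 and 27 (-1.14, adjusted p = 0.0422, limma). None of these 4 genes was called once any 1 library was omitted: adjusted p then ran from 0.0623 to 0.164 for CYP27C1, 0.0519 to 0.186 for TBXAS1, 0.0517 to 0.149 for ABCB1 and 0.101 to 0.154 for ABCC4. With voom, 4 of the sensors and regulators were higher and 4 lower, as were 2 and 4 of the electron donor and cosubstrate genes and 0 and 2 of the other phase I enzymes. Among the other P450s it called 4 higher and 0 lower, and among the efflux pumps 0 higher and 3 lower. Over all genes voom called 12.2% higher and 8.20% lower.

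**Figure D5:**
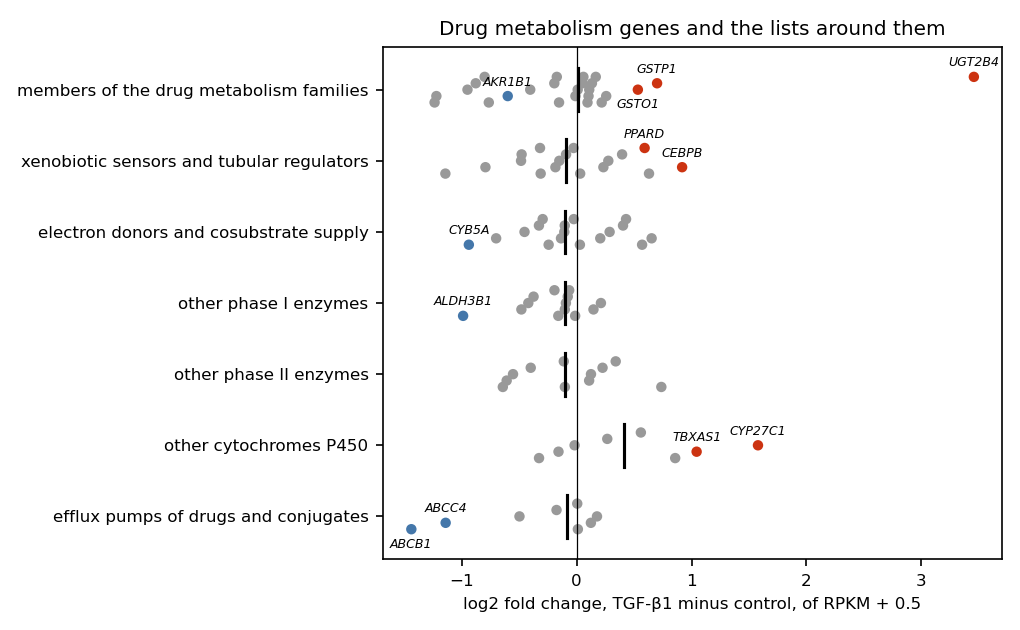
Log2 fold change of RPKM + 0.5 of every tested gene in the drug metabolism families and in the 6 lists around them, with called genes in colour and named, and a black bar at each median. Called genes are few in each row, and most genes lie between -1 and 1.

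Depth and scaling bound these values. The recovered reads summed to 3336692 and 4801657 in the controls and to 4638787 and 5451702 with TGF-β1. The library sizes implied by the deposited RPKM, inferred here and not stated by the authors, were 1.02, 0.979, 0.896 and 0.864 times these totals in the same order. Scaling by the totals instead shifted the median of all log2 fold changes by -0.15, and the calls over all genes from 1015 higher and 498 lower to 654 higher and 888 lower. On that scale GSTP1, GSTO1 and UGT2B4 were still called higher and AKR1B1 and EPHX4 lower.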

How the data were processed

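RNA-seq libraries from 4 HK-2 samples were used, grouped and numbered by their titles. Per the labels' protocols, TRIzol extraction of total RNA was followed by a directional NEBNext library kit. The authors deposited 1 table of RPKM values. The build hg38 and the tools STAR 2.7.1a, bcl2fastq 2.20.0.422 and DESeq2 come from the submitters' processing notes, without roles. Annotation, strand setting and the program behind the RPKM were not given in the sources used here.

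Symbols came from a gene name table (25312 of 25609 identifiers matched) and gene types, positions and exon lengths from GENCODE release 29, where 93.1% had the same version. RPKM times exon length gave whole reads plus 0.5, times a constant of the library (tolerance 0.01 read). Reads were so recovered for 25498 genes (99.6%), 1292 of them, GSTP1 included, with a length inferred from the values. Because of the added 0.5 no deposited value is 0.

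The test was limma 3.58.1 in R 4.3.3 (lmFit, eBayes with a variance trend) on log2(RPKM + 0.5), for genes with a mean of at least 0.5 RPKM, with Benjamini-Hochberg adjustment. Fold changes on this scale understate the change of weak genes. A mean ± SD is over the 2 libraries of a group. The fit was tested on simulated data. Alternatives varied the pseudocount, filter, trend, scaling and replicate block, used voom on recovered reads and left out each library. Shared words were counted in GENCODE release 29 transcripts on both strands. The members and the lists were chosen with earlier results of these data known.

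Genes were named by rule: every called member, the tested member of highest mean RPKM in each family or its subfamily, members outside the filter with at least 10 reads or 1 RPKM in a library, close copies of these, and SMAD7 and PMEPA1 as the check of the treatment label. Some genes that the rule names are not reported here. In each list the named genes were the 3 called genes with the smallest p, or the 1 with the smallest p where none passed. Other genes were named after their values were seen. Close copies were judged by shared words and coding identity, not by protein sequence.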

Additional observations from a re-analysis of the deposited data

How the results depend on the processing

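The directions of UGT2B4, GSTP1, GSTO1 and AKR1B1 held under all 15 alternatives. The count of 4 called members became 1 (UGT2B4) without the variance trend and 10 with voom on recovered reads, and was 3 to 4 with 1 library left out. Over all genes the 1513 calls became 977 without the filter, 424 without the trend and 3364 with voom, and 574 to 1138 with 1 library left out. In the lists around the families the 8 calls became 4 without the filter, 13 with a mean of at least 2 RPKM, 3 without the trend, 13 with scaling by total recovered reads and 28 with voom, and 1 to 4 with 1 library left out. Same-numbered libraries deviated together little (correlation 0.03 over genes, with 2 pairs), so the numbers were not taken to pair the samples. With the replicate block the calls were 1344 over all genes, 4 members and 5 in the lists.

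Signs turned for 11 of the 25 tested members, none of them called. With scaling by total recovered reads the log2 values were -0.012 for AKR1A1, -0.074 for CBR1, -0.085 for EPHX1, -0.12 for GSTK1, -0.12 for GSTM3, -0.033 for GSTO2, -0.13 for SULT1A1 and -0.030 for UGT2B7. After quantile normalisation they were -0.037 for CBR1, -0.15 for EPHX1, -0.037 for GSTK1 and -0.056 for GSTM3. Upper-quartile scaling gave -0.0089 for GSTM3 and -0.038 for SULT1A1, median-of-ratios scaling -0.025 for SULT1A1, a pseudocount of 0.1 gave 0.036 for CYP2D6 and voom 0.17 for CYP2D6. With 1 library left out the ranges were -0.45 to 0.10 for CBR3, -0.41 to 0.39 for CYP2D6, -0.40 to 0.013 for CYP2J2, -0.051 to 0.17 for GSTK1, -0.045 to 0.064 for SULT1A1 and -0.023 to 0.29 for UGT2B7. The scaling, pseudocount and voom settings kept all 4 libraries, and only those with 1 library left out used fewer. Scaling by total recovered reads shifted the median of all log2 fold changes by -0.15. The cause of the turned signs was not tested. With 1 library left out, the lone sample is assumed to vary like the other group. Low read numbers limit what could be seen in the 40 members below the filter.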
